A study of Mus musculus with 9 samples.

Results

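Blood stem cell niche ligand and adhesion genes were followed in liver stroma that was sorted at 1 fetal stage (E15.5, embryonic day) and 2 stages after birth (P5 and P10, postnatal days). The 8 genes were listed by name: Kitl, Cxcl12, Angpt1, Csf1, Vcam1, Il7, Ptn and Mdk. All 8 were measured, among 19938 genes in all, and each by 1 Affymetrix probe set. Every group was of C57BL/6 background and genotype Cxcl12DsRed/+, in which 1 allele of Cxcl12 carries the red fluorescent reporter DsRed. The 3 groups, E15.5, P5 and P10, had 3 arrays each, described by the submitters as independent replicates. The sorted cells were negative for CD45 and Ter119, which mark blood cells, and positive for DsRed. The labels do not say whether an array held 1 animal or a pool, so the p-values rest on array-to-array spread alone, which may be technical. The unit is the log2 signal given by RMA (robust multi-array average), and the small number of arrays limits the precision of each mean.

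A blood stem cell niche is the set of cells that hold and feed blood stem cells. Stromal cells of the niche secrete or display ligands, such as the Kit ligand and CXCL12, and adhesion proteins to which blood cells bind. Blood is made largely in the liver before birth and in the bone marrow afterwards. CXCL12 is the chemokine that attracts and retains CXCR4-bearing blood cells, so a Cxcl12 reporter picks out cells that make a niche signal. Kit ligand keeps blood stem cells alive through the Kit receptor, angiopoietin 1 acts through Tie2, and VCAM1 binds the integrin VLA-4 on blood cells.

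RefSeq (GRCm38.p6) gave promoter windows, of 250 bases before to 50 after a start position, for 4 of the 8 genes: Kitl, Cxcl12, Csf1 and Ptn. For Kitl this position is not the first base listed for the gene, 100015615. That base lies inside the window, so most of the Kitl window is within the gene as listed. Angpt1, Vcam1, Il7 and Mdk were not matched. The windows of Kitl, Csf1 and Ptn are printed as those of the matched genes that were tested and were lower at both P5 and P10 than at E15.5. Capitals mark matches, on either strand, to the TATA box TATAAA, the GC box GGGCGG, the homeobox core TAATTA or the NF-kB motif, and overlapping matches run together. The Kitl window is at chr10:100015571-100015870 on the plus strand, that of Csf1 at chr3:107760420-107760719 on the minus strand, and that of Ptn at chr6:36810130-36810429 on the minus strand.
Kitl: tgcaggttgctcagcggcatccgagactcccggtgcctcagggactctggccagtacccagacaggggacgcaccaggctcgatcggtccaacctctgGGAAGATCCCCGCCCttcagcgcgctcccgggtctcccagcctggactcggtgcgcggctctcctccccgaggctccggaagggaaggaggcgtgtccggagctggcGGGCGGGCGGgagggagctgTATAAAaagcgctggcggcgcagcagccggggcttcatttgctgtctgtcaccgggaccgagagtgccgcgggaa
Csf1: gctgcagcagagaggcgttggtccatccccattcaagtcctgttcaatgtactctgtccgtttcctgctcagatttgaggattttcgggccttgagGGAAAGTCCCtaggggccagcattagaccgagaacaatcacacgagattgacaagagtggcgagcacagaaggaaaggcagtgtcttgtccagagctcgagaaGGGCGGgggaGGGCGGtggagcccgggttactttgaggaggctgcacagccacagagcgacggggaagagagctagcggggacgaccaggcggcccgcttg
Ptn: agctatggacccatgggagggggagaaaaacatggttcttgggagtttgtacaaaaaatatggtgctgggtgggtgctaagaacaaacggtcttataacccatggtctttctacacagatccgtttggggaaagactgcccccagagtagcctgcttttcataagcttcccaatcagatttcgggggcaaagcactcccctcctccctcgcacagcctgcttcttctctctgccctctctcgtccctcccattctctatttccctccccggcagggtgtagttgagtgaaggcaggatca
Of 32807 RefSeq promoter windows of this length, 13.6% held TATAAA, 35.6% held GGGCGG, 5.30% held TAATTA and 8.46% held the NF-kB motif. The Kitl window held TATAAA once, GGGCGG at 3 places and the NF-kB motif once, with 1 GGGCGG sharing a base with the NF-kB match and the other 2 overlapping each other. The Csf1 window held the NF-kB motif once and GGGCGG at 2 places. None of the 4 motifs was in the Ptn window. These matches describe letters only.

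Of the 7 genes other than Cxcl12, whose reporter defined the sort, 6 fell between E15.5 and P5 and Il7 did not pass the test. The 6 were Kitl, Angpt1, Csf1, Vcam1, Ptn and Mdk. Over all genes 35.6% were called at P5, with 17.7% of all genes lower and 17.9% higher (limma, Benjamini-Hochberg adjusted p under 0.05). At P10 the same 6 genes were lower than at E15.5, against 18.6% of all genes, and Il7 was higher, against 20.1%, with 38.7% called in either direction. The median difference of the 7 was -2.03 at P5 and -2.44 at P10, where the medians of all genes were 0.03 and 0.02. All 8 genes, Cxcl12 included, had P5 and P10 arrays that did not overlap those of E15.5, 7 lower and Il7 higher. Stages did not overlap for 45.2% of all genes at P5 (21.1% lower, 24.1% higher) and for 51.7% at P10 (23.8% lower, 27.9% higher). In bulk samples like these, fewer cells of a type and less RNA per cell cannot be told apart.

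**Figure D1:**
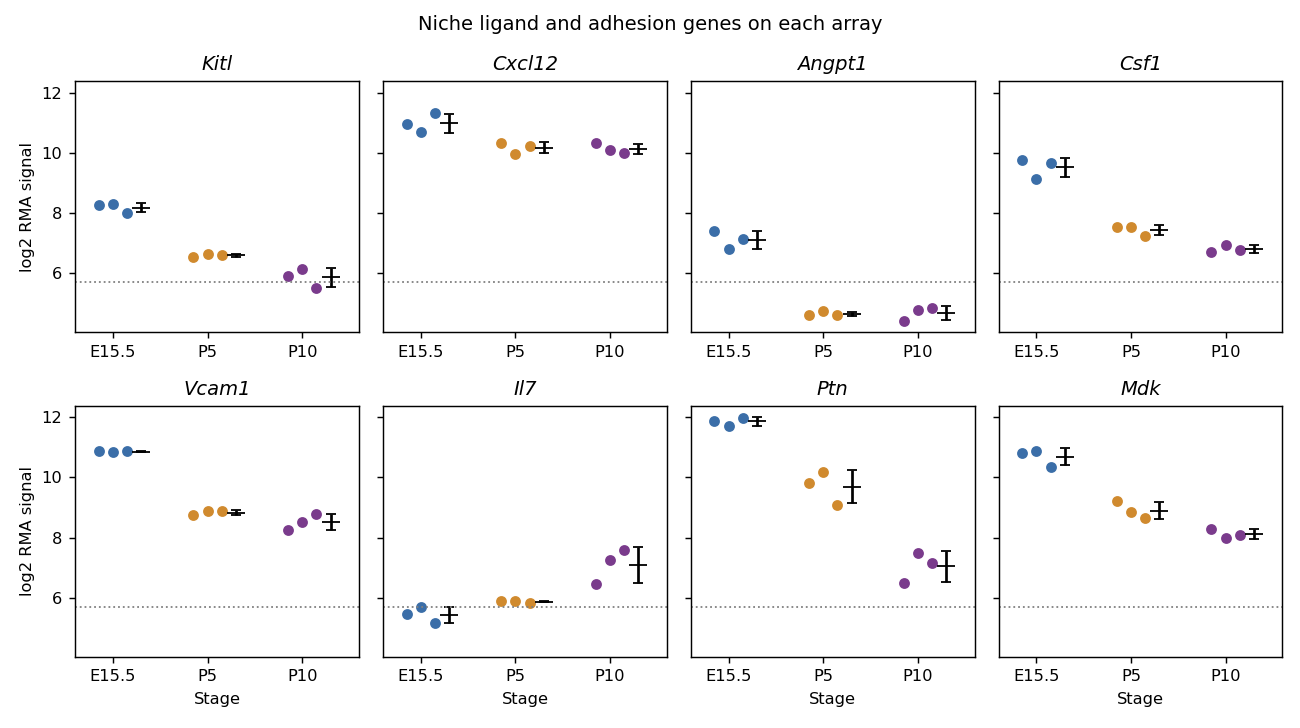
Log2 RMA signal of each niche gene on each array (coloured points: E15.5 blue, P5 orange, P10 purple), with the stage mean and SD (black, n = 3). The dotted line is percentile 30 of all genes. Ptn falls from a mean of 11.87 to 7.03, Il7 rises from 5.42 to 7.09, and the other genes fall in steps of different size.

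Among the ligands, Kitl, which encodes the Kit ligand or stem cell factor, had log2 signals of 8.25, 8.28 and 7.99 at E15.5. The P5 arrays had 6.53, 6.64 and 6.59, and the P10 arrays 5.90, 6.14 and 5.50. Every P5 array was below every E15.5 array, and every P10 array below every P5 array. Kitl fell by 1.59 ± 0.15 (SE, n = 3 per stage, 3.01-fold, adjusted p = 7.13e-05, limma) from E15.5 to P5. From E15.5 to P10 it fell by 2.33 ± 0.15 (5.02-fold). Its place among all genes went from percentile 72.7 to 46.6 and then to 33.4.

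Angpt1, which encodes angiopoietin 1, the activating ligand of the Tie2 receptor, had 7.39, 6.79 and 7.14 at E15.5. It had 4.61, 4.72 and 4.60 at P5, and 4.41, 4.75 and 4.83 at P10. Every postnatal array was below every E15.5 array, and the postnatal stages overlapped. Angpt1 differed by -2.46 ± 0.16 at P5 (adjusted p = 7.14e-06, limma) and by -2.44 ± 0.16 at P10 from E15.5, and by 0.02 between P10 and P5 (95% confidence interval -0.35 to 0.39). Its postnatal means, 4.64 and 4.66, were near percentile 10.5 at P5 and just above it at P10, among all genes, so dim that a further decrease after P5 could not be seen. With values below percentile 30 of an array raised to that percentile, the decreases shrank to -1.40 and -1.44 and still passed.

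Csf1, which encodes the growth factor of macrophages, had 9.76, 9.14 and 9.65 at E15.5. It had 7.52, 7.52 and 7.23 at P5, and 6.69, 6.93 and 6.75 at P10. The 3 stages did not overlap. Csf1 differed by -2.09 ± 0.16 at P5 (adjusted p = 2.18e-05, limma) and -2.73 ± 0.16 at P10 from E15.5, a 6.62-fold lower signal at P10. From P5 to P10 the difference, -0.64 ± 0.16, missed the threshold (adjusted p = 0.0665). It passed there without E15.5 array 2 (adjusted p = 0.0211).

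The heparin-binding growth factors pleiotrophin (Ptn) and midkine (Mdk) form 1 small family. Ptn had 11.89, 11.71 and 12.00 at E15.5, 9.81, 10.18 and 9.09 at P5, and 6.47, 7.48 and 7.15 at P10. Its stages did not overlap, and the P5 and P10 arrays spread more widely (SD 0.56 and 0.51) than those of E15.5 (SD 0.14). Ptn differed by -2.18 ± 0.31 at P5 (adjusted p = 0.000737, limma) and by -4.83 ± 0.31 at P10 from E15.5, which is 28.5-fold lower. At P10, 11 genes including Ptn fell as far or farther from E15.5, and 6 genes including Ptn did so between P5 and P10. Between P5 and P10 Ptn differed by a further -2.66 ± 0.31 (adjusted p = 0.00307, limma).

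Mdk had 10.80, 10.89 and 10.36 at E15.5, 9.20, 8.85 and 8.64 at P5, and 8.30, 7.97 and 8.09 at P10. Again no 2 stages overlapped. Mdk differed by -1.79 ± 0.18 at P5 (adjusted p = 9.61e-05, limma) and -2.57 ± 0.18 at P10 from E15.5, a 5.93-fold decrease.

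Vcam1, the adhesion gene of the list, had 10.87, 10.83 and 10.88 at E15.5. It had 8.75, 8.87 and 8.88 at P5, and 8.26, 8.50 and 8.77 at P10. All postnatal arrays lay well below the E15.5 arrays, while the P5 and P10 arrays overlapped. Vcam1 differed by -2.03 ± 0.12 at P5 (adjusted p = 3.47e-06, limma) and -2.35 ± 0.12 at P10 from E15.5. The difference between P10 and P5, -0.32 ± 0.12, did not pass (adjusted p = 0.185), except without P10 array 3, where it was -0.45 (adjusted p = 0.0410).

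Il7, the cytokine of early lymphoid cells, went the other way. It had 5.44, 5.68 and 5.14 at E15.5, 5.88, 5.88 and 5.83 at P5, and 6.44, 7.24 and 7.59 at P10. The P10 arrays were all higher than the rest and spread over more than a log2 unit. Il7 differed by 1.67 ± 0.27 at P10 from E15.5 (3.18-fold, adjusted p = 0.00109, limma). At P5 the difference was 0.45 ± 0.27 and did not pass (adjusted p = 0.247, 95% confidence interval -0.17 to 1.06), although the P5 arrays lay above the E15.5 arrays, as those of 24.1% of all genes did. Its means lay at percentile 25.0, 33.0 and 56.7 of all genes, so the early stages were read at a dim signal.

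Cxcl12 had 10.95, 10.68 and 11.31 at E15.5, 10.31, 9.95 and 10.24 at P5, and 10.31, 10.08 and 10.01 at P10. It stayed among the brighter genes at all stages (percentile 96.7, 92.1 and 91.0). Whether its probe set also reads transcripts of the DsRed allele is not stated, so the level may be that of 1 allele or of both. Its differences are given without a test because the cells were chosen by its reporter. They were -0.81 ± 0.17 at P5 and -0.85 ± 0.17 at P10 from E15.5, and -0.04 ± 0.17 between P10 and P5.

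**Figure D2:**
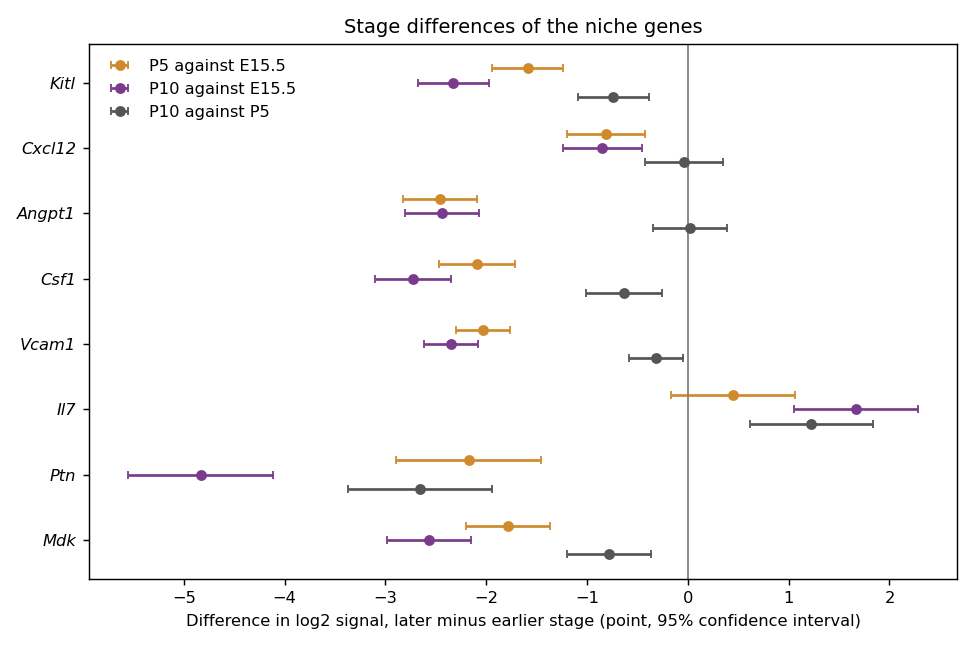
Difference in log2 signal (later minus earlier stage) of each niche gene, with 95% confidence intervals from limma, for P5 against E15.5 (orange), P10 against E15.5 (purple) and P10 against P5 (grey). Between P10 and P5 the intervals of Angpt1 and Cxcl12 include 0, and that of Ptn is centred on -2.66. The intervals are not adjusted for the number of genes. Those of Csf1 and Vcam1 exclude 0 there, although both genes missed the adjusted threshold.

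Between P5 and P10, 3 of the 7 genes fell (Kitl, Ptn and Mdk) and 1 rose (Il7), where 5.65% of all genes were called, 2.89% lower and 2.76% higher. Arrays of P5 and P10 did not overlap for Kitl, Csf1, Ptn and Mdk, which were lower, and for Il7, which was higher. That held for 20.2% of all genes (9.66% lower, 10.6% higher). Kitl differed by -0.74 ± 0.15 (adjusted p = 0.0303, limma), Mdk by -0.78 ± 0.18 (adjusted p = 0.0457) and Il7 by 1.22 ± 0.27 (adjusted p = 0.0359). These calls, unlike that of Ptn, sat close to the threshold. That of Kitl ended without E15.5 array 1, any P5 array or P10 array 1 (adjusted p from 0.0545 to 0.0879, differences from -0.77 to -0.71). That of Mdk ended without E15.5 array 1 or 2, P5 array 1 or 2, or any P10 array (adjusted p from 0.0583 to 0.151, differences from -0.87 to -0.63). That of Il7 ended without E15.5 array 1 or 2, any P5 array, or P10 array 2 or 3 (adjusted p from 0.0522 to 0.124, differences from 0.97 to 1.23).

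The share of the change that was present at P5 was set out per gene. Of the log2 change reached by P10, the part present at P5 was 45.0% for Ptn, 68.3% for Kitl, 69.6% for Mdk, 76.7% for Csf1, 86.5% for Vcam1 and 101% for Angpt1. For Il7, the rising gene, it was 26.7%. A contrast of the later with the earlier interval, which differ in length, tested each gene on its own, and differences among genes were not tested. It passed for Angpt1 (2.48 ± 0.28, adjusted p = 0.000573, limma), Vcam1 (1.71 ± 0.20, adjusted p = 0.000762) and Csf1 (1.45 ± 0.28, adjusted p = 0.00951), whose decreases were larger before P5 than after it. For Angpt1 the share and the contrast are limited by its dim postnatal signal, and with values raised to percentile 30 the contrast was 1.37. Over all genes 16.6% were called, 7.93% with a positive contrast, as here, and 8.70% with a negative one. A positive contrast also takes in genes that rose more after P5 than before it. For Kitl (0.85 ± 0.27, adjusted p = 0.0643) and Mdk (1.01 ± 0.31, adjusted p = 0.0643) the contrast did not pass. It passed for Kitl without P10 array 3 (1.02, adjusted p = 0.0112). It passed for Mdk without E15.5 array 3 or P5 array 1 (1.17 and 1.31). Ptn (-0.48, 95% confidence interval -1.73 to 0.76) and Il7 (0.78, -0.28 to 1.84) did not pass either, apart from Il7 without P10 array 1 (1.11, adjusted p = 0.0313).

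Markers of cell types were read on the same arrays, and they do not settle which cells made the RNA. Hepatocyte markers, described further below, had means of 10.58, 12.54 and 12.42 at E15.5, P5 and P10. Hepatic stellate cells are liver pericytes that store vitamin A, and of their 16 listed markers 15 were measured and none had a stage mean under percentile 30. Their mean log2 signal was 10.05 to 10.25 on the E15.5 arrays, 8.14 to 8.51 at P5 and 7.90 to 8.15 at P10. All 15 fell from E15.5 to P5, where 17.7% of all genes were lower. At P10, 14 were lower than at E15.5, where 18.6% of all genes were. The contrast of the later with the earlier interval passed for 11 of the 15, all positive, where 7.93% of all genes were. Its median over the 15 was 1.77, so a decrease larger before P5 was not particular to Angpt1, Vcam1 and Csf1. Lhx2, a stellate transcription factor gene, differed by -2.33 at P5 and -2.89 at P10 from E15.5.

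To set each niche gene beside these markers, the mean of the 15 was subtracted from its signal on the same array. An exact permutation test of 3 arrays against 3 cannot go below p = 0.1, so ranges are given. On this scale Ptn went from 1.69 ± 0.066 (SD, n = 3) at E15.5 to -0.98 ± 0.40 at P10, a further decrease of -2.66 with no overlap. Vcam1, at 0.68 ± 0.086, 0.56 ± 0.28 and 0.50 ± 0.25, overlapped between all stages. Kitl at P10 (-2.48 to -1.99) overlapped E15.5 (-2.24 to -1.77), as did Mdk and Angpt1. Csf1 at P10 (-1.23 to -1.21) lay below E15.5 (-0.91 to -0.50). With Lrat, Lhx2 and Des alone as the reference the sign turned for 5 genes at P10 against E15.5: to 0.44 for Kitl, 0.33 for Angpt1, 0.044 for Csf1, 0.42 for Vcam1 and 0.20 for Mdk. The directions of these genes relative to stellate markers therefore depended on the reference, while that of Ptn (-2.06) at P10 did not turn. This reference raised the P10 difference of every gene alike. Cxcl12 and Il7, already positive, therefore could not turn. Cxcl12 and Il7 lay higher relative to the markers at P10 than at E15.5, by 1.32 and 3.84. The marker mean itself went from 10.18 to 8.01, so a gene with an unchanged signal would also lie higher on this scale. These values show unequal change on an array, not the cell that made the RNA.

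**Figure D3:**
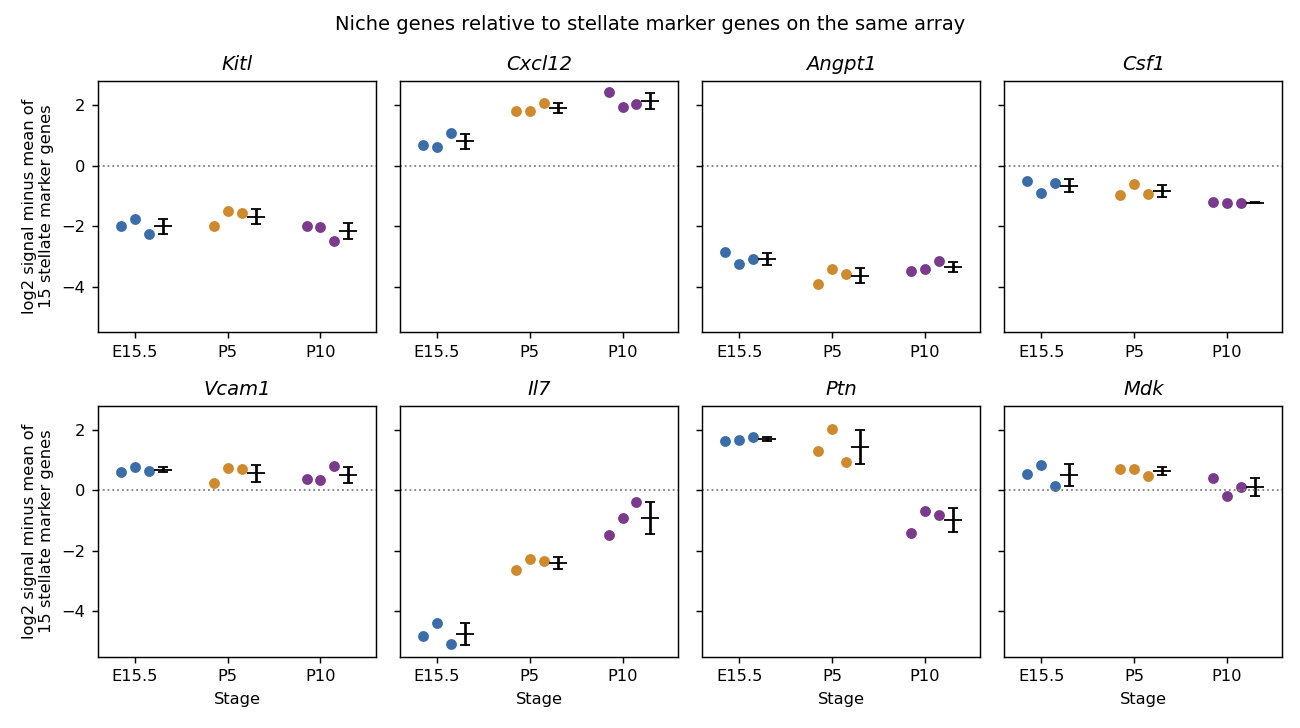
Log2 signal of each niche gene minus the mean of 15 stellate marker genes on the same array (points), with the stage mean and SD (black, n = 3) and a dotted line at 0. Ptn drops from 1.69 to -0.98 and Il7 climbs from -4.76 to -0.92, whereas Kitl, Vcam1 and Mdk have overlapping ranges between E15.5 and P10.

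Receptors of these ligands were measured on the same arrays. Of 18 listed receptor genes 17 were measured. At P5, 2 rose, 7 fell and 8 did not pass, where 17.9% of all genes were higher and 17.7% lower (35.6% called). At P10 against E15.5, 1 rose, 6 fell and 10 did not pass, where 20.1% were higher and 18.6% lower (38.7% called). The median difference at P10 was -0.28. Both chains of VLA-4, the integrin that binds VCAM1, fell at P10 from E15.5: Itga4 by 2.16 ± 0.14 and Itgb1 by 2.62 ± 0.12. Ackr3, the scavenging receptor of CXCL12, fell by 3.18 ± 0.24 (adjusted p = 1.22e-05, limma), from 8.58 to 5.40. The P10 means of Ackr3 (percentile 24.6) and Itga4 (percentile 29.8) were dim, which limits how far a decrease could be read.

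Kit, Cxcr4, Tek, Tie1, Csf1r, Il7r and Itgb7 did not pass at P10 against E15.5. Every P10 array was nonetheless below every E15.5 array for Kit (5.87 to 6.46 against 6.52 to 6.62). That also held for Cxcr4 (5.96 to 5.99 against 6.21 to 6.49) and Tek (6.05 to 6.54 against 6.70 to 7.53). Arrays of P10 lay below those of E15.5 without overlap for 23.8% of all genes. For Tie1, Csf1r, Il7r and Itgb7 the arrays of E15.5 and P10 overlapped. The sort took cells without the blood cell markers CD45 and Ter119, which limits what is read of receptors on blood cells. Kit had means of 6.56, 6.56 and 6.15 at E15.5, P5 and P10, and Cxcr4 6.31, 6.47 and 5.98. The Tie2 gene Tek had 7.07, 6.57 and 6.23 and Tie1 6.65, 6.82 and 6.72. The CSF1 receptor gene Csf1r differed by 0.19 at P5 (adjusted p = 0.0295) and by 0.09 at P10. Il7r, whose chain binds IL-7, had 4.25, 4.28 and 4.29 (percentile 4.1, 4.1 and 4.4), and Itgb7 5.59, 5.53 and 5.63 (percentile 28.2, 26.6 and 29.3). Both were dim at every stage, which limits how far a decrease could be read.

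Among receptors of pleiotrophin and midkine, Lrp1 fell by 1.35 ± 0.080 and the syndecan gene Sdc3 by 1.42 ± 0.18 at P10 from E15.5. The nucleolin gene Ncl fell by 0.19. Sdc4 differed by 0.60 ± 0.13 and was the receptor that rose (adjusted p = 0.00508, limma). Sdc1 differed by -0.42 at P5 (adjusted p = 0.0122) and did not pass at P10 (-0.28). Its P10 arrays (7.83 to 8.09) were nonetheless all below its E15.5 arrays (8.15 to 8.38). The tyrosine phosphatase gene Ptprz1 (4.27, 4.22 and 4.17) and Alk (5.98, 6.04 and 6.08) did not pass. Ptprz1 was so dim (percentile 4.5, 3.4 and 2.8) that a decrease could not be seen.

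Among enzymes that cut or modify niche ligands, 10 were measured. At P5 and again at P10 against E15.5, 1 rose, 6 fell and 3 did not pass, where 17.7% and 18.6% of all genes were lower, and the median was -1.04 at P10. Adam10, a protease that releases membrane-bound ligands, differed by -2.58 ± 0.086 at P10 and Mmp14, a membrane matrix metalloprotease, by -2.03 ± 0.087. The heparan sulfate enzymes Ext1 (-1.24) and Hpse (-1.87) were also lower. Mmp9, which can release Kit ligand, was the one that rose at P10, by 0.36 ± 0.076 (adjusted p = 0.00523, limma), from dim means of 5.33 at E15.5 and 5.49 at P5.

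Other niche ligands were called in both directions. Of 36 measured of 40 listed, 6 rose and 12 fell at P5, where 17.9% of all genes were higher and 17.7% lower (35.6% called). At P10 against E15.5, 4 rose and 12 fell (median -0.10), where 20.1% were higher and 18.6% lower (38.7% called). Some were dim at every stage, such as Il6, Tslp, Csf2 and Il11 (percentile 1.9, 9.5, 9.0 and 21.8 at E15.5). The median takes in such genes, in which a decrease could hardly be read. Jag1, a Notch ligand gene, and Angpt2, the context-dependent Tie2 ligand gene, differed by -2.43 ± 0.15 and -1.05 ± 0.065 at P10, with Angpt2 at a dim percentile 16.4 there. Dlk1, which encodes a membrane protein of the Notch ligand family, differed by -4.67 ± 0.14. In the other direction the growth factor gene Fgf1 (3.35 ± 0.14), the lymphoid cytokine gene Il15 (1.30 ± 0.18) and the chemerin gene Rarres2 (0.70 ± 0.097) were higher. Quantile normalisation called 25 of these genes at P10 in place of 16.

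Of 23 measured adhesion genes other than Vcam1, 2 rose and 9 fell at P5, where 17.9% of all genes were higher and 17.7% lower. At P10 against E15.5, 1 rose and 12 fell (median -0.54), where 20.1% were higher and 18.6% lower. The cadherin genes Cdh11 (-3.81 ± 0.091) and Cdh2 (-2.90 ± 0.12) and the immunoglobulin family genes Alcam (-2.71 ± 0.093) and Ncam1 (-2.44 ± 0.12) were lower, and L1cam was higher (0.25 ± 0.082, adjusted p = 0.0444, limma). Of 12 measured regulators and markers of niche stroma, 2 rose and 7 fell at P10 against E15.5, beside the same 20.1% and 18.6% of all genes. The mesenchymal receptor genes Pdgfra and Pdgfrb differed by -3.69 ± 0.21 and -2.65 ± 0.20, and the transcription factor gene Nr2f2 by -1.98 ± 0.11. Lepr, the leptin receptor gene that marks niche stroma of the adult marrow, had means of 5.27, 7.77 and 6.55 and was higher at P5 (2.50 ± 0.10) and P10 (1.28 ± 0.10) than at E15.5, where its signal was dim (percentile 22.2). Rela, an NF-kB subunit gene, was higher by 0.60 ± 0.15 (adjusted p = 0.0127).

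**Figure D4:**
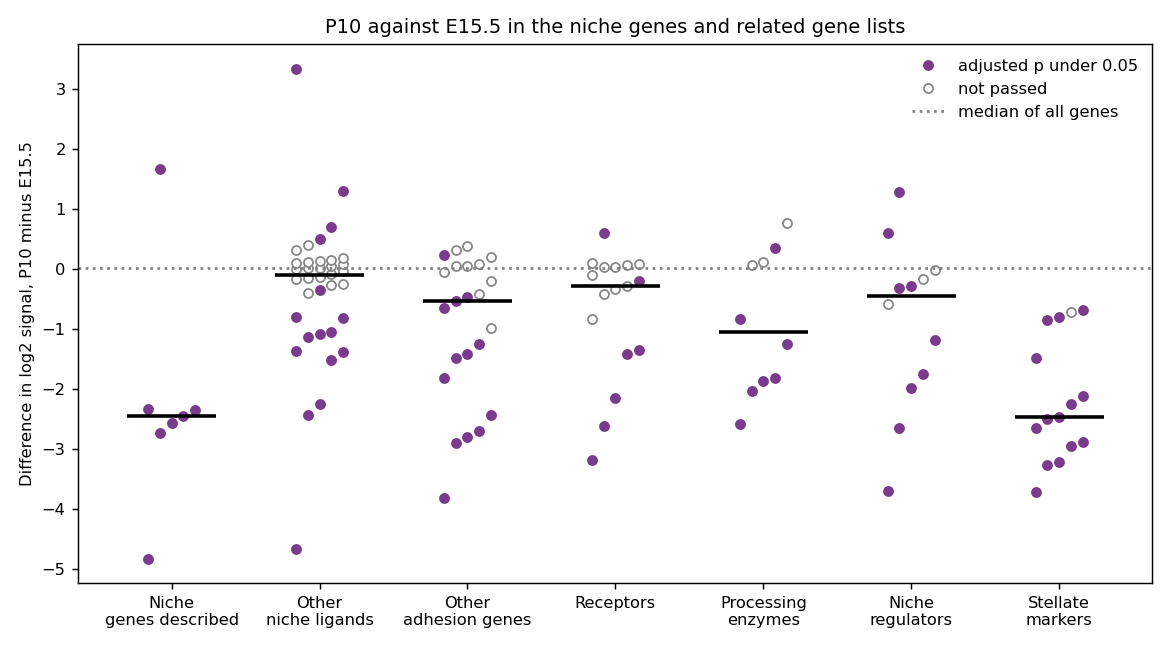
Difference in log2 signal between P10 and E15.5 for each gene (filled points: adjusted p under 0.05, limma, open points: not passed) of the niche genes without Cxcl12, of related lists and of stellate markers, with the list median (bar) and the median of all genes (dotted line, 0.02). Of the 7 niche genes Il7 lies above 0, and their median is -2.44, where that of the stellate markers is -2.47 and that of other niche ligands -0.10. Other niche ligands include genes dim at every stage, such as Il6 and Tslp, in which a decrease could hardly be read. Hgf is in both that list and the stellate list.

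For each niche gene the 2 genes with the most similar pattern were those with the smallest root mean square difference of centred log2 signals over the 9 arrays, among 9686 named genes brighter on average than the median gene. They were Ehd2 (0.134) and Cdh3 (0.142) for Kitl, Fkbp14 (0.0961) and Phactr2 (0.176) for Angpt1, and Prnp (0.137) and Dse (0.147) for Csf1. For Vcam1 they were Nbea (0.0999) and Lpcat1 (0.110), for Mdk Cyba (0.188) and Sema5a (0.192), and for Cxcl12 Exo5 (0.0792) and Tnks (0.106). Ptn was nearest to Zim1 (0.255) and Itm2a (0.325), and Il7 to Sfxn5 (0.257) and Idh3a (0.268). Among the 28 pairs of niche genes, Angpt1 and Vcam1 were most alike (0.234), and Il7 and Ptn least (2.70).

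Markers of other cells are given beside these results, and their part in them was not tested. The mean of the hepatocyte markers was bright at all stages: 10.52 to 10.66 at E15.5, 12.51 to 12.58 at P5 and 12.31 to 12.52 at P10. The median difference of the list from E15.5 was smaller, 0.41 at P5 and 0.19 at P10. Of 11 measured, 8 rose and 1 fell at P5, where 17.9% of all genes were higher and 17.7% lower. From E15.5 to P5, Tat went from 5.68 to 11.65, Cyp2e1 from 5.53 to 12.69 and Cps1 from 6.25 to 10.45. Afp, the 1 that fell, went from 13.32 to 12.88. Alb, the albumin gene, read 13.03 to 13.22 on all 9 arrays, and Tat and Cyp2e1 were under percentile 30 at E15.5. Endothelial markers had a mean of 6.53 to 6.79 at E15.5 and 6.55 to 7.09 at P10, but at P5 6.30 on array 1 and 7.67 and 8.09 on arrays 2 and 3. Leaving both arrays out, a choice made after the data were seen, 6 genes still fell at P5, and P10 against P5 kept 1 lower call and 0 higher in place of 3 and 1.

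Macrophage markers read 5.45 to 5.75 over all arrays, and Ptprc, the CD45 gene, was under percentile 30 at every stage. Megakaryocyte markers had means of 7.11 to 7.97 at E15.5 and 5.82 to 6.06 postnatally. Ppbp and Pf4 were among the 3 of 4 called lower at P5, where 17.7% of all genes were. Erythroid markers had means of 7.49 to 8.21 at E15.5 and 7.25 to 7.62 postnatally. The mean of the mesothelial markers was highest at P5 (8.94 to 9.22, against 7.90 to 8.02 at E15.5 and 7.10 to 7.32 at P10). That of cholangiocyte markers was too (7.20 to 7.36 at P5). Of 8 mesothelial markers 6 rose and 1 fell at P5, where 17.9% of all genes were higher and 17.7% lower. The 1 was Wt1, with means of 9.08, 8.11 and 6.87 at E15.5, P5 and P10. Portal fibroblast markers had 8.07 to 8.16 at E15.5, 7.87 to 8.30 at P5 and 7.32 to 7.44 at P10.

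**Figure D5:**
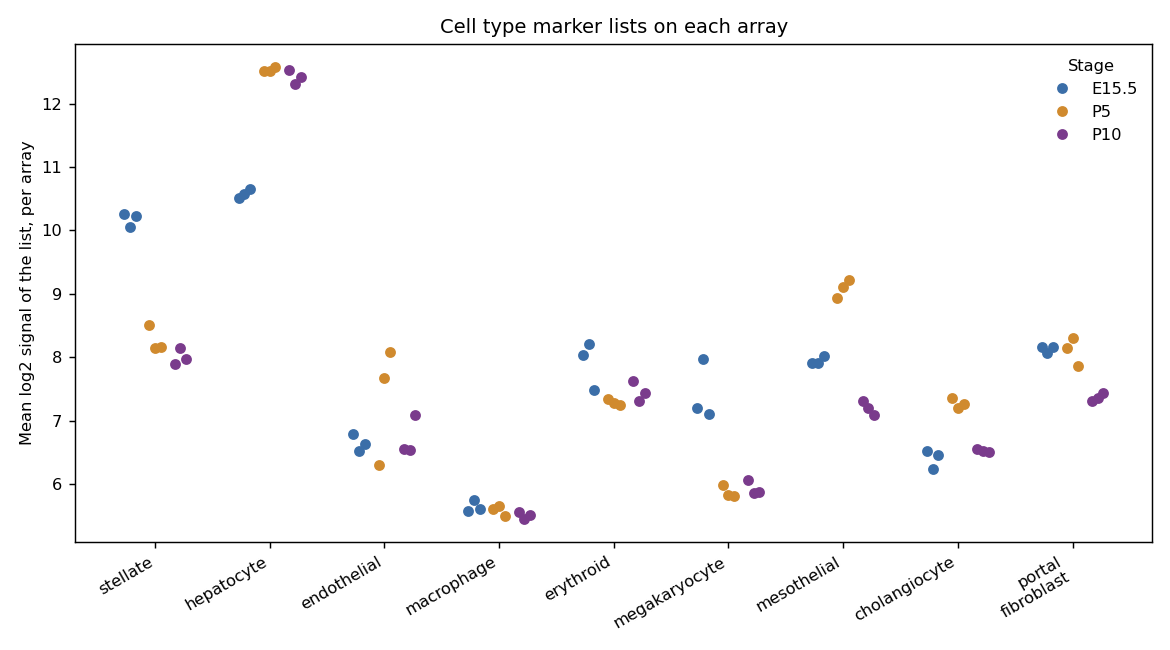
Mean log2 signal of each cell type marker list on each array (points: E15.5 blue, P5 orange, P10 purple). Stellate markers fall from about 10.18 to 8.01, hepatocyte markers go from 10.58 to 12.42, and endothelial markers differ among the P5 arrays from 6.30 to 8.09.

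Sex was not labelled. Eif2s3y, a gene of the Y chromosome, had signals of 3.96 to 4.14 on 5 arrays. It had 7.94 on array 3 of E15.5, where Xist was also high (10.16), then 8.98 and 9.24 on arrays 2 and 3 of P5, and 8.97 on array 1 of P10. With the Eif2s3y signal as a covariate the 6 decreases at P5 and P10 kept their calls, Il7 passed at P5 (0.66 ± 0.21, adjusted p = 0.0482, limma), and Kitl no longer passed between P5 and P10 (adjusted p = 0.0601). Array medians over genes were 6.69 to 6.82, and arrays of 1 stage correlated at Pearson r of 0.986 to 0.995 across genes, which are not independent replicates. Neither labels nor headers name a batch, so one that followed stage cannot be told apart from stage.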

How the data were processed

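RNA of 9 sorted stromal samples was extracted with Trizol and hybridised as biotinylated cRNA, per the labels. The deposited log2 values come from RMA, run by the authors with Affymetrix Expression Console, per the submitters' processing notes, which also name Transcriptome Analysis Console 2.0. This method subtracts background, equalises probe distributions between arrays and tends to shrink differences of dim genes. The sources used here name no genome build for the probes.

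Of 35556 probe sets, 21789 had 1 symbol, 1621 several and 12146 were not listed. The probe set with the highest mean represented each of 19938 genes, with symbols updated by Entrez identifier through RefSeq (GRCm38.p6, names and promoter windows). Limma 3.58.1 in R 4.3.3 was fitted to all 9 arrays with stage as the only term (6 residual degrees of freedom), adjusting p over all genes. It was tested on simulated data. No filter was applied, so all 8 genes were tested. Errors of means are SD and of differences SE. Same-numbered arrays were not alike (Pearson r of residuals -0.079 to 0.069), so they were not paired.

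The genes and lists were chosen with earlier results of these data known. Besides the 8 genes, all receptors were named, as were, per other list, up to 4 called genes of smallest adjusted p at P10 against E15.5, up to 3 against the majority, and the 2 nearest patterns per gene. Figures used matplotlib 3.10.9.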

Additional observations from a re-analysis of the deposited data

How the results depend on the processing

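Besides the deposited values with stage as the only term, 10 other settings and the omission of each array in turn were run, as was the omission of P5 replicates 2 and 3 together, chosen after the data were seen. Kitl, Angpt1, Csf1, Vcam1, Ptn and Mdk kept their decreases and calls from E15.5 to P5 and P10 in each of the 19 alternatives other than that omission, as did the rise of Il7 at P10. Il7 at P5 passed with the Eif2s3y covariate (0.66), which took the count of higher genes from 0 to 1. The weak point was P10 against P5. There Kitl was lost with quantile normalisation (-0.67, adjusted p = 0.0572), the Eif2s3y covariate (-0.75) and only the 2 stages compared (-0.74), and Mdk with quantile normalisation (-0.78), a floor at percentile 30 (-0.78) and only the 2 stages (-0.78). Il7 was lost with the replicate number as a block (1.22, adjusted p = 0.0624) and only the 2 stages (1.22), which left 0 higher genes. Quantile normalisation left 1 lower gene. Csf1 passed with a filter at percentile 30 (-0.64) and only the 2 stages (-0.64). Without P5 replicates 2 and 3, Kitl (-0.68), Il7 (1.21) and Mdk (-1.08) were lost, leaving 1 lower and 0 higher. In the interval contrast Kitl passed with the filter (0.85), the floor (0.91) and the block (0.85), and Mdk with quantile normalisation (1.11), centring on all genes (1.04), the filter (1.01) and the block (1.01). Without P5 replicates 2 and 3, Csf1 did not pass (1.26) and Cxcl12 was at 0.49. Omitting 1 array at a time gave, for P10 against P5, -0.88 to -0.57 for Kitl, -0.74 to -0.59 for Csf1, -0.45 to -0.19 for Vcam1, 0.97 to 1.55 for Il7 and -0.91 to -0.63 for Mdk, with 1 to 3 lower and 0 to 1 higher genes. For the interval contrast it gave 0.71 to 1.02 for Kitl, 0.53 to 1.11 for Il7 and 0.75 to 1.31 for Mdk. Same-numbered arrays were not alike, so the block only shows how calls move with the numbering. It also called 5 other adhesion genes in place of 3, 2 receptors in place of 4 and 1 niche regulator in place of 2 in P10 against P5. Quantile normalisation called 25 other niche ligands in place of 16 and 11 receptors in place of 7 in P10 against E15.5. In P10 against P5 the filter called 5 other adhesion genes, and centring on all genes, the Eif2s3y covariate, only the 2 stages and the omission of P5 replicates 2 and 3 called 2 receptors. Quantile normalisation, the floor and only the 2 stages called 1 niche regulator there. The omission of P5 replicates 2 and 3 called 7 other adhesion genes at P5 in place of 11. Omitting 1 array called 3 to 5 other adhesion genes, 2 to 4 receptors, 1 to 2 niche regulators and 586 to 1385 of all genes in P10 against P5, where only the 2 stages called 709 in place of 1126. Quantile normalisation moved the median of all genes to 0.12 at P5 and 0.15 at P10, and the share of calls that were higher from 50.2% to 64.1% and from 51.8% to 69.4%. Centring on all genes gave 65.6% at P10 against E15.5 and 63.5% in place of 48.8% in P10 against P5. Relative to Lrat, Lhx2 and Des alone, P5 minus E15.5 was 0.62 for Kitl, 1.40 for Cxcl12, -0.25 for Angpt1, 0.12 for Csf1, 0.18 for Vcam1, 2.65 for Il7 and 0.42 for Mdk. P10 minus E15.5 was then 0.44, 1.92, 0.33, 0.044, 0.42, 4.44 and 0.20 in the same order, and -2.06 for Ptn, so that the sign turned for Kitl, Angpt1, Csf1, Vcam1 and Mdk, as it did at P5 for Csf1, Vcam1 and Ptn and in P10 minus P5 for Vcam1. P10 minus P5 was -0.17 for Kitl, 0.53 for Cxcl12, 0.58 for Angpt1, -0.073 for Csf1, 0.25 for Vcam1 and -0.22 for Mdk. With the floor, Angpt1 relative to all stellate markers turned from -0.55 to 0.50 at P5 and from -0.27 to 0.73 at P10. The causes were not tested. Dim signals limit Angpt1 and Angpt2 after birth, Ackr3 and Itga4 at P10, Il7 and Mmp9 before P10 and Lepr at E15.5. They also limit Il7r, Itgb7 and Ptprz1 at all stages, and other niche ligands such as Il6, Tslp, Csf2 and Il11. On P10 array 3, Kitl (5.50) was under the mean percentile 30 of that stage (5.66).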
